A study of Mus musculus with 9 samples.

Results

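The genes described here encode the Tie and vascular endothelial growth factor (VEGF) receptors and their main ligands. They are Tie1, Tek, Angpt1, Angpt2, Kdr, Flt1, Flt4, Vegfa and Vegfc, 9 of the 18193 genes measured, of which 5 encode receptors and 4 encode ligands. All probe sets that the array's annotation assigns to one of these symbols alone were taken, which gave 18 of 45037 probe sets. Tie1, Tek and Kdr had 1 probe set each and the other 6 genes had more. RNA for each of the 9 arrays was a pool of 3 aortas (sinus through arch) of female mice of C57BL/6 background that lack apolipoprotein E (APOE-/-) and therefore develop atherosclerosis. The mice were bought at 8 weeks of age and fed for 30 weeks with added cholesterol (0.2%) and coconut oil (10%). A single tail-vein injection followed, 10 days before tissue was taken, of HDAd-gE3, a helper-dependent adenovirus (stripped of viral genes) with human apolipoprotein E3, of HDAd-0, the empty vector, or of phosphate-buffered saline. These 3 groups, the last called PBS, had 3 arrays each. The germline knockout was shared by all 3 groups, so no group had normal lipoprotein clearance before the injection, and pooling hides the spread between single mice.

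Tek, also called Tie2, is the endothelial receptor tyrosine kinase for the angiopoietins. Angpt1, made largely by cells around the endothelium, activates it and favours quiet, sealed vessels, while Angpt2, stored in endothelial cells, can oppose Angpt1. Tie1 is a related receptor that forms complexes with Tek and tunes its signalling. Kdr (VEGF receptor 2) carries most of the angiogenic signal of Vegfa, Flt1 (VEGF receptor 1) binds Vegfa tightly and exists in a soluble form that acts as a decoy, and Flt4 (VEGF receptor 3) is the receptor for Vegfc in lymphatic growth. The 5 receptors are expressed mainly by endothelial cells, a thin layer of the aortic wall.

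All values are log2 signals that the authors deposited after RMA (background correction, quantile normalization and summary of each probe set on the log2 scale), and a difference of 1 is a doubling. Groups were compared with linear models over all 9 arrays (limma), and p was adjusted over all genes (Benjamini-Hochberg, threshold 0.05). The number of arrays, 3 a group, limits the precision of every value. The deposited signals ran from 1.98 to 14.7 and the array medians from 6.67 to 6.77. Smooth muscle markers were bright, with transgelin (Tagln) at 13.99 in PBS, 13.98 in HDAd-0 and 14.06 in HDAd-gE3. So were markers of heart muscle, which adjoins the aortic sinus, with atrial natriuretic peptide (Nppa) at 13.1, 11.7 and 13.3 in the same order. The mouse Apoe probe set read 6.88 ± 0.14 (SD, n = 3) in PBS, 7.32 ± 0.28 in HDAd-0 and 6.95 ± 0.20 in HDAd-gE3, and since every mouse was a knockout and the vector carried the human gene it does not test the labels.

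**Figure D1:**
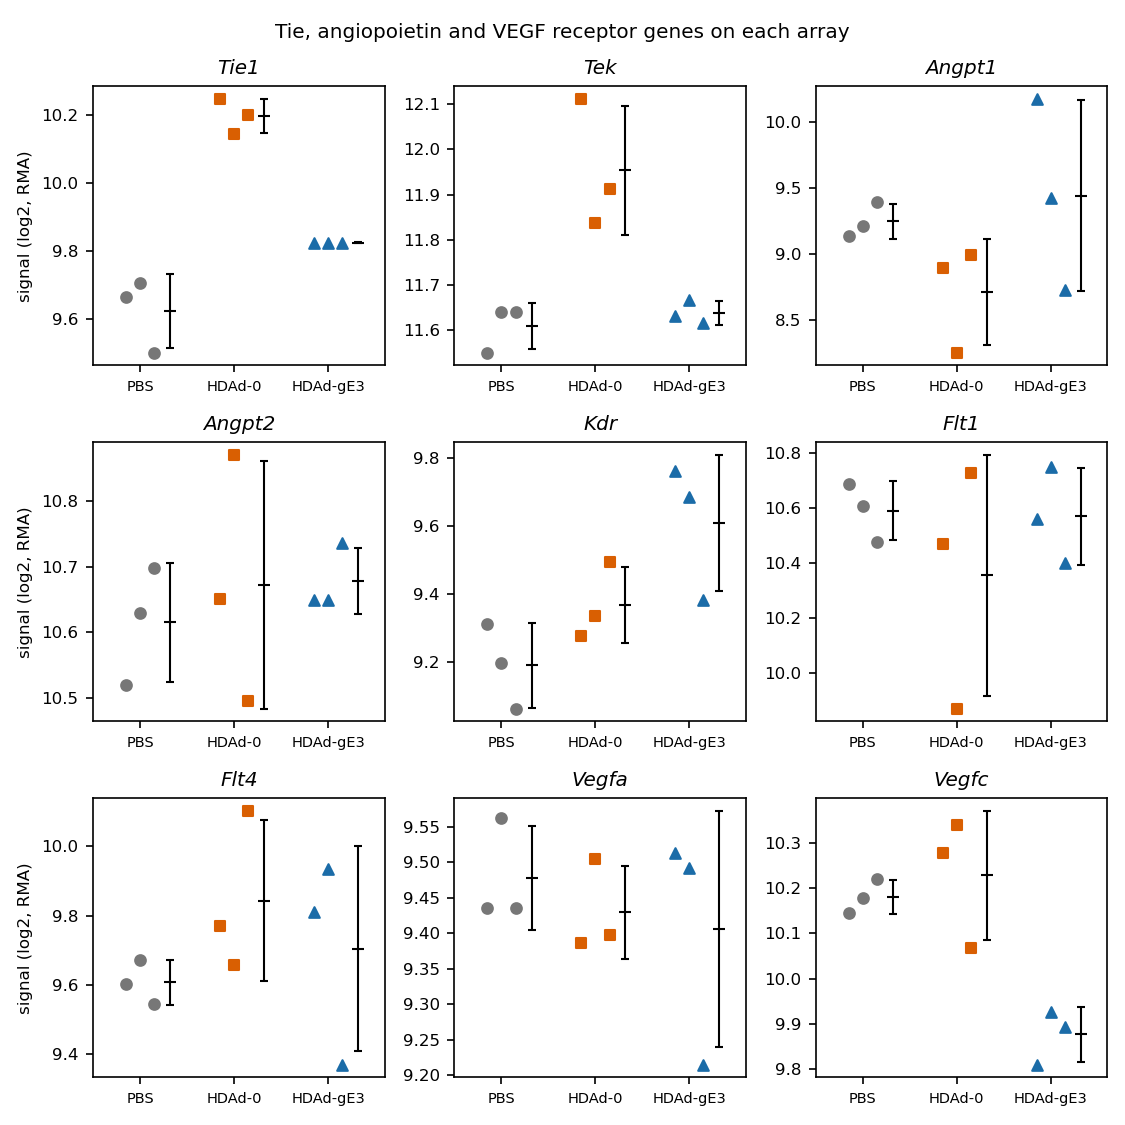
Log2 RMA signal of the 9 genes (1 panel a gene, each with its own vertical axis; the probe set with the highest mean) on the 3 arrays of each group, with bars for the group mean ± SD. Tie1 separates into 3 levels, Tek is highest in HDAd-0, Vegfc is lowest in HDAd-gE3 and Angpt1 varies most within HDAd-gE3.

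Tie1 was the 1 gene of the 9 that rose past the threshold in a comparison. Its signal was 9.66, 9.71 and 9.50 on the PBS arrays (replicates 1, 3 and 4), 10.25, 10.14 and 10.20 on the HDAd-0 arrays (replicates 3, 4 and 5), and 9.83, 9.82 and 9.83 on the HDAd-gE3 arrays (replicates 2, 3 and 4). The 3 groups did not overlap, with HDAd-0 at the top, HDAd-gE3 between and PBS at the bottom. Against PBS, Tie1 rose 1.49-fold with HDAd-0, by 0.57 ± 0.066 (log2, SE; limma, adjusted p = 0.0466). It differed by -0.37 ± 0.066 between HDAd-gE3 and HDAd-0 (limma, adjusted p = 0.191) and by 0.20 ± 0.066 between HDAd-gE3 and PBS (0.267), neither of which passed. The spread among the HDAd-gE3 arrays (SD 0.0013) was far below that in PBS (SD 0.11) and HDAd-0 (SD 0.051). The call for HDAd-0 against PBS did not survive the removal of any single array but one: the adjusted p lay between 0.0934 and 0.205 for 8 of the 9 arrays, and the call held only without HDAd-0 replicate 4 (limma, adjusted p = 0.0387). The difference itself stayed between 0.51 and 0.61 in these fits. With p adjusted over every probe set instead of over genes, Tie1 did not pass (limma, adjusted p = 0.081).

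Tek was also highest with HDAd-0. It read 11.55, 11.64 and 11.64 with PBS, 12.11, 11.84 and 11.91 with HDAd-0, and 11.63, 11.67 and 11.62 with HDAd-gE3. All 3 HDAd-0 arrays lay above the 6 others, and the PBS and HDAd-gE3 arrays overlapped. The difference of 0.34 ± 0.077 between HDAd-0 and PBS (limma, adjusted p = 0.158) and that of -0.32 ± 0.077 between HDAd-gE3 and HDAd-0 (0.207) did not pass. Between HDAd-gE3 and PBS the difference was 0.029 ± 0.077 (limma, adjusted p = 0.907). Both comparisons that set HDAd-0 apart use the same 3 HDAd-0 arrays, so they are not independent of each other. HDAd-0 replicate 3 was the highest Tek array, and without it the difference from PBS was 0.27 and that from HDAd-gE3 was -0.24.

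The promoter windows of Tie1 and Tek are shown because these receptors, both on chromosome 4, were highest on the HDAd-0 arrays. Vegfc is added because it was lowest on the HDAd-gE3 arrays. Each is the 250 bases before a transcription start in RefSeq (GRCm38.p6), 5′ to 3′ on the gene's strand, with the bases of every GGAA or its reverse complement TTCC in capitals. GGAA is the core that ETS transcription factors, a family with central roles in endothelial genes, recognise. The Tie1 window lies at chr4:118489850-118490099 (minus strand), the Tek window at chr4:94739039-94739288 (plus strand) and the Vegfc window at chr8:54077282-54077531 (plus strand). RefSeq's Tek gene, which spans chr4:94739086-94874976, begins inside its window. Most of the Tek window, with both of its capitalised matches, therefore lies after the start of the gene.
Tie1: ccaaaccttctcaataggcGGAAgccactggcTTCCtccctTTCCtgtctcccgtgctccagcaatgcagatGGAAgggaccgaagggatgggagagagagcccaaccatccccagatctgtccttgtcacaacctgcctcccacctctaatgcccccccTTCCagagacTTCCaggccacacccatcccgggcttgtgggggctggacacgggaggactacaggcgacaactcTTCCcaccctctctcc
Tek: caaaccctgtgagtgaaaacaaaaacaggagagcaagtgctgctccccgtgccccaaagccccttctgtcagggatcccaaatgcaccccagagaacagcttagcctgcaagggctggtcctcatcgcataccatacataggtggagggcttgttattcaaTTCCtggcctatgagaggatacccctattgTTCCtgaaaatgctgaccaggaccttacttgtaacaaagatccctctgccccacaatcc
Vegfc: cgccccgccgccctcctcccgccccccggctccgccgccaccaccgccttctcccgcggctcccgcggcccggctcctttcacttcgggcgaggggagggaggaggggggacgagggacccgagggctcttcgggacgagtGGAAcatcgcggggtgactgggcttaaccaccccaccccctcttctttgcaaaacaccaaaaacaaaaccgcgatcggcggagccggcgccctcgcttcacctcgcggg
The Tie1 window held 7 such matches, a number that 3.82% of 32851 windows of this length reach or exceed. The Tek window held 2, a number reached by 76.8% of windows, and the Vegfc window 1, against a median of 3 and 93.4% of windows with at least 1. Of the members' windows not shown, Kdr held 4 matches, Flt1 4, Flt4 2 and the 2 of Vegfa 6 and 2. A count of 6 is reached by 8.69% of windows. No TATAA was found on either strand of the 3 windows shown, as against 22.8% of all windows with one, and the Flt1 window held 2. The Vegfc window was 71.6% G and C, above the median of 52.4%, with 30 CG pairs, and those of Tie1 and Tek were 60.4% and 51.2% with 6 and 2 pairs. These matches describe the letters of the windows, and no binding was measured.

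Among the VEGF receptors, Kdr was highest with HDAd-gE3. It read 9.31, 9.20 and 9.06 with PBS, 9.28, 9.33 and 9.49 with HDAd-0, and 9.76, 9.68 and 9.38 with HDAd-gE3. The HDAd-gE3 arrays lay above all PBS arrays, while HDAd-0 overlapped both neighbours in the order. Kdr was 1.34-fold higher in mean with HDAd-gE3 than with PBS, a difference of 0.42 ± 0.11 that did not pass (limma, adjusted p = 0.209). It differed by 0.24 ± 0.11 between HDAd-gE3 and HDAd-0 (limma, adjusted p = 0.414), and HDAd-0 was 0.18 ± 0.11 from PBS (0.543). With array weights, which called 804 genes in place of 23 in HDAd-gE3 against PBS, Kdr passed (0.44 ± 0.088; limma, adjusted p = 0.0366). With the 3' minus 5' control signal, a sign of RNA quality that was lowest in HDAd-gE3, as a covariate, the difference from PBS was 0.29 ± 0.11 (limma, adjusted p = 0.412) and that from HDAd-0 was 0.053 ± 0.12 (0.934).

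The 4 Flt1 probe sets did not run together. The brightest, 1451756_at, read 10.69, 10.61 and 10.48 with PBS, 10.47, 9.87 and 10.73 with HDAd-0, and 10.56, 10.75 and 10.40 with HDAd-gE3. HDAd-0 replicate 4 was the lowest array, and the groups overlapped in all 3 comparisons. The dimmest Flt1 probe set, 1454037_a_at, was highest on that array (7.44, with the others between 6.73 and 7.17). It differed by 0.32 ± 0.13 between HDAd-0 and PBS (limma over every probe set, adjusted p = 0.38), where 1451756_at differed by -0.24 ± 0.20 (0.663). The Pearson correlation of these 2 probe sets over the 9 arrays was -0.54. The other 2, 1419300_at and 1440926_at, differed by -0.13 to -0.034 over the 3 comparisons. Probe sets of a gene can report different transcript forms, and which form each reports is not given in the files, so no single direction is given for Flt1.

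Flt4 followed no group. The brighter of its 2 probe sets read 9.60, 9.67 and 9.55 with PBS, 9.77, 9.66 and 10.10 with HDAd-0, and 9.81, 9.93 and 9.37 with HDAd-gE3. The highest array was HDAd-0 replicate 5 and the lowest was HDAd-gE3 replicate 4, which fell below all PBS arrays while the other 2 of its group lay above them. Its 2 probe sets had a Pearson correlation of 0.97 over the 9 arrays. The largest difference was 0.24 ± 0.16 for HDAd-0 against PBS (limma, adjusted p = 0.565), and it was 0.11 without HDAd-0 replicate 5. With the 3' minus 5' covariate the difference between HDAd-gE3 and HDAd-0, -0.14 ± 0.16, became -0.46 ± 0.15 (limma, adjusted p = 0.353).

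**Figure D2:**
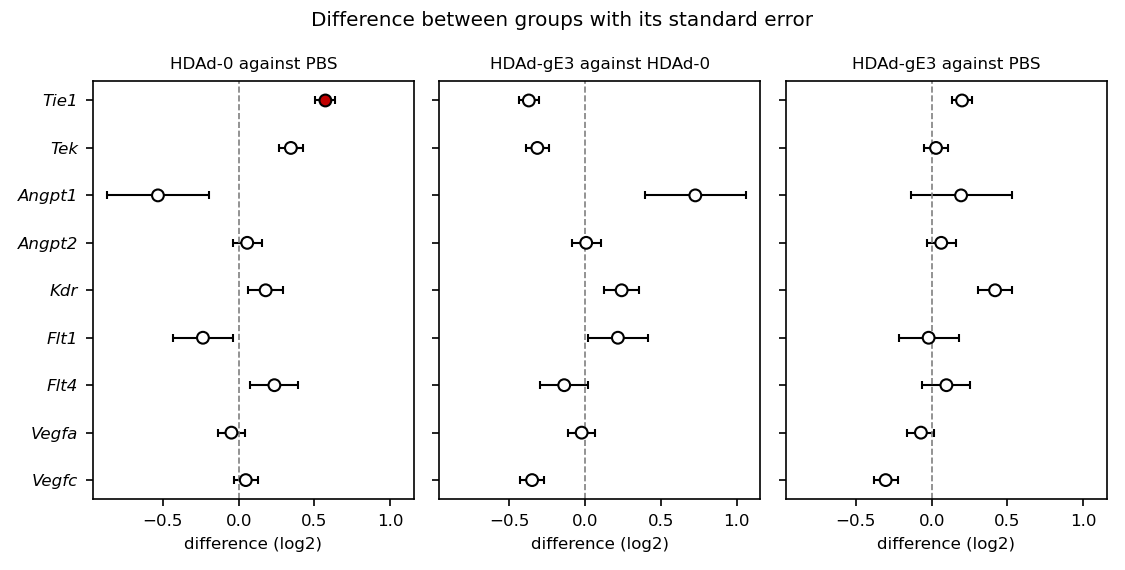
Difference in log2 signal with its standard error for each of the 9 genes in the 3 comparisons, from the fit across all genes; the filled point passed the adjusted threshold of 0.05 and open points did not. Tie1 with HDAd-0 against PBS is the only filled point, and the error of Angpt1 is the widest.

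Of the ligands, Vegfc was lowest with HDAd-gE3 on all 3 of its probe sets. The brightest, 1439766_x_at, read 10.15, 10.18 and 10.22 with PBS, 10.28, 10.34 and 10.07 with HDAd-0, and 9.81, 9.93 and 9.89 with HDAd-gE3. Each HDAd-gE3 array lay below all 6 others, and PBS and HDAd-0 overlapped. The differences of -0.35 ± 0.079 from HDAd-0 (limma, adjusted p = 0.196) and -0.30 ± 0.079 from PBS (0.198) did not pass. On 1440739_at the same differences were -0.33 ± 0.079 and -0.20 ± 0.079, again with no overlap between HDAd-gE3 and the other groups. On 1419417_at they were -0.19 ± 0.077 and -0.085 ± 0.077, and HDAd-gE3 overlapped PBS. The suffix x marks a probe set with probes that may also match other transcripts. The 3 probe sets had Pearson correlations of 0.84 to 0.92 with each other over the 9 arrays. With array weights the difference from PBS passed (-0.27 ± 0.057; limma, adjusted p = 0.0397). With the 3' minus 5' covariate the differences were -0.22 ± 0.081 from HDAd-0 (limma, adjusted p = 0.429) and -0.21 ± 0.07 from PBS (0.378).

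**Figure D3:**
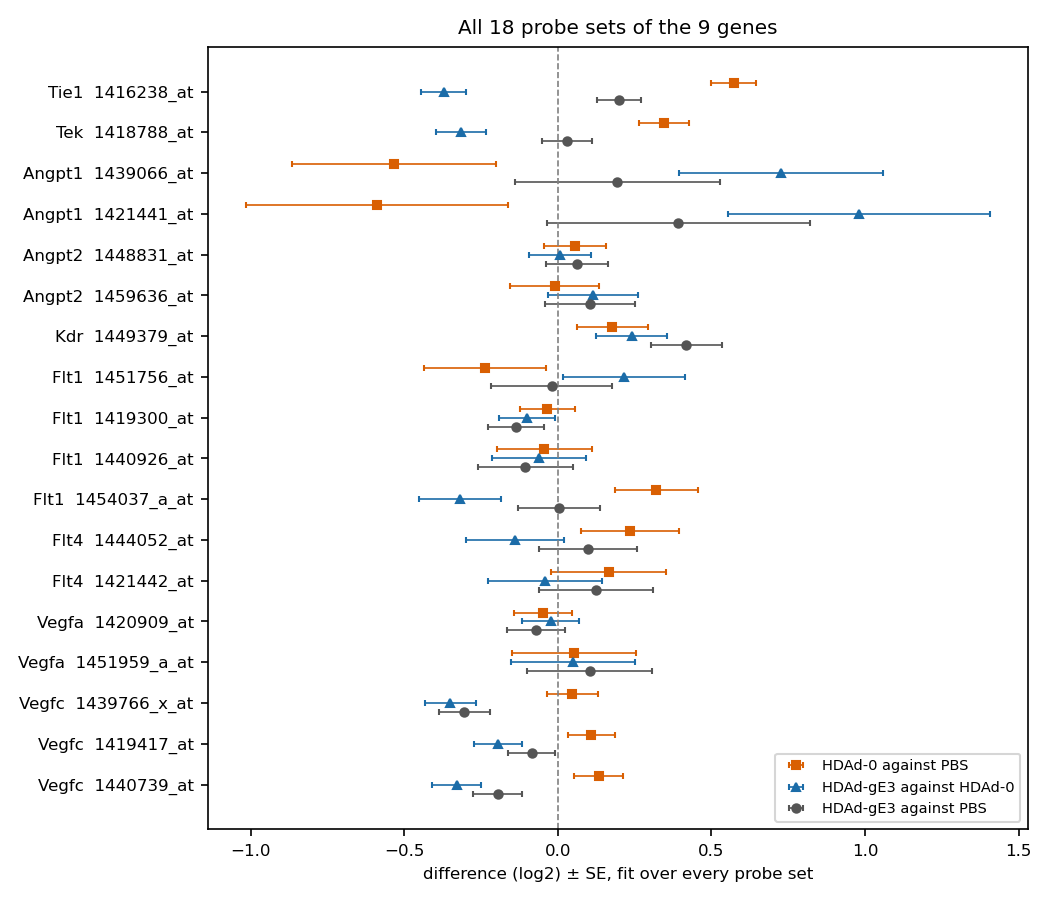
Difference in log2 signal ± SE for all 18 probe sets in the 3 comparisons, from the fit over every probe set. The 3 Vegfc probe sets lie on the same side in each comparison, whereas the 4 Flt1 probe sets lie on both sides of 0 in HDAd-0 against PBS.

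Vegfa, the main ligand of Kdr, differed little between groups. Its brighter probe set read 9.44, 9.56 and 9.44 with PBS, 9.39, 9.51 and 9.40 with HDAd-0, and 9.51, 9.49 and 9.22 with HDAd-gE3. All 3 groups overlapped and no difference exceeded 0.071 in size, with a standard error of 0.089. The second Vegfa probe set spanned 0.70 over the 9 arrays, and its correlation with the first was 0.23, so the 2 do not report one common pattern.

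Angpt2 was also alike across the groups in the fit without a covariate. It read 10.52, 10.63 and 10.70 with PBS, 10.65, 10.87 and 10.50 with HDAd-0, and 10.65, 10.65 and 10.74 with HDAd-gE3. The differences ran from 0.0066 to 0.063 with a standard error of 0.097. Its dimmer probe set differed by -0.011 to 0.11, each with an error of 0.15. The Pearson correlation of the 2 probe sets over the 9 arrays was 0.19, so they do not report one common pattern. With the 3' minus 5' covariate the brighter probe set differed by 0.22 ± 0.071 between HDAd-gE3 and HDAd-0 (limma, adjusted p = 0.355).

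Angpt1 had the widest spread over the 9 arrays of the 9 genes, and the largest difference between HDAd-gE3 and HDAd-0. The brighter probe set read 9.14, 9.21 and 9.39 with PBS, 8.89, 8.26 and 8.9955 with HDAd-0, and 10.17, 9.42 and 8.73 with HDAd-gE3. The HDAd-0 arrays lay below all PBS arrays, and the HDAd-gE3 arrays, with an SD of 0.72, overlapped both other groups. Angpt1 differed by 0.73 ± 0.33 between HDAd-gE3 and HDAd-0 (limma, adjusted p = 0.402), and HDAd-0 was -0.53 ± 0.33 from PBS (0.535). The first difference became 0.36 on leaving out HDAd-gE3 replicate 2 and 1.08 on leaving out HDAd-gE3 replicate 4. With the 3' minus 5' covariate it became 0.29 ± 0.42 (limma, adjusted p = 0.882). The second became -0.30 on leaving out HDAd-0 replicate 4. The second probe set had a Pearson correlation of 0.94 with the first over the 9 arrays. It read 6.50, 6.82 and 6.37 with PBS, 6.27, 5.20 and 6.46 with HDAd-0, and 7.61, 7.21 and 6.05 with HDAd-gE3. On it HDAd-0 overlapped PBS, since HDAd-0 replicate 5 lay above PBS replicate 4.

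Cardiac muscle markers moved with Angpt1. The mean of the 7 cardiac markers, as a deviation from the mean of all arrays, was 0.33, 0.30 and 0.28 on the PBS arrays, -0.75, -0.93 and -0.046 on the HDAd-0 arrays and 0.68, 0.32 and -0.18 on the HDAd-gE3 arrays. HDAd-0 replicate 4 was lowest in both the markers and Angpt1, and HDAd-gE3 replicate 2 was highest in both. None of the 7 cardiac markers passed in any comparison (limma over all genes). At an unadjusted p under 0.05, all 7 had a lower mean in HDAd-0 than in PBS, beside 4.39% of all genes. At that level 3 had a higher mean in HDAd-gE3 than in HDAd-0, beside 3.46% of all genes. The part of the cardiac signal in the Angpt1 values was not tested.

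**Figure D4:**
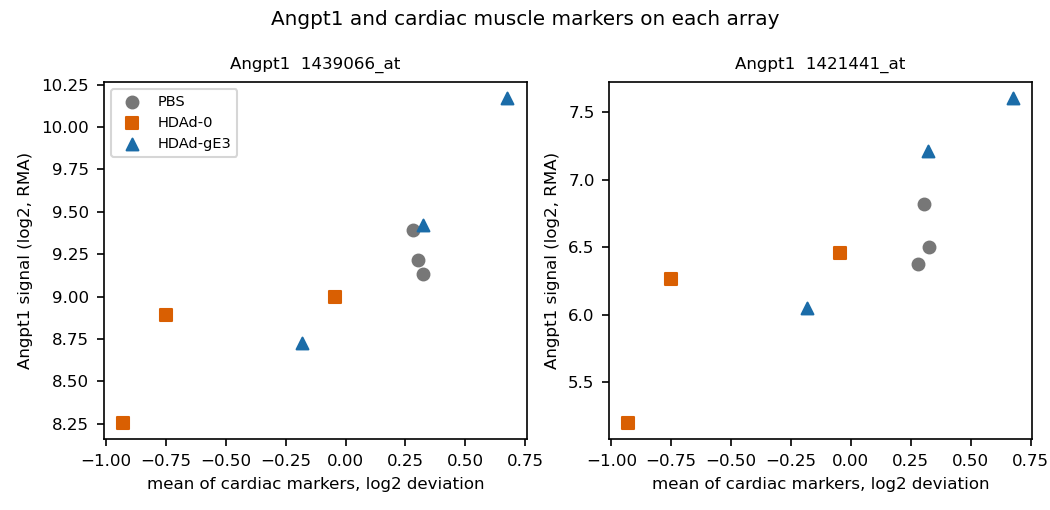
Log2 RMA signal of the 2 Angpt1 probe sets against the mean of 7 cardiac markers (log2 deviation from the mean of all arrays), 1 point an array. HDAd-0 replicate 4 is at the lower left at 8.26 and 5.20, and HDAd-gE3 replicate 2 at the upper right at 10.17 and 7.61.

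Counted over the 9 genes, 1 was called higher and 0 lower in HDAd-0 against PBS, where 0.066% of all genes were called in either direction. Before adjustment, p was under 0.05 for 2 of the 9 in that comparison (limma), both higher, beside 12.9% of all genes in either direction. The 9 genes were chosen with earlier results of these data known, so their counts beside those of all genes are descriptions. No member was called in HDAd-gE3 against HDAd-0, where 0.0055% of all genes were called, or in HDAd-gE3 against PBS, where 0.126% were (limma; before adjustment, p was under 0.05 for 3 members in each, beside 12.9% and 13.2% of all genes). Groups did not overlap for 3 of the 9 genes in every comparison. For HDAd-gE3 against HDAd-0 these were Tie1, Tek and Vegfc, all lower, where 12% of all genes were lower without overlap and 4.25% higher. For HDAd-0 against PBS they were Tie1 and Tek, higher, and Angpt1, lower, against 11.8% and 7% of all genes. Each gene is counted on its brightest probe set, and the second Angpt1 probe set overlapped there. For HDAd-gE3 against PBS they were Tie1 and Kdr, higher, and Vegfc, lower, against 10.8% and 13.2%. The median difference of the 9 genes was -0.023, 0.056 and 0.063 in these 3 comparisons, beside -0.04, 0.024 and -0.015 for all genes.

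General endothelial markers were also highest with HDAd-0. The mean of 14 markers that hold none of the 9 genes, as a deviation from the mean of all arrays, ran from -0.21 to -0.14 on the PBS arrays, from 0.025 to 0.31 on the HDAd-0 arrays and from -0.11 to 0.027 on the HDAd-gE3 arrays. In HDAd-0 against PBS, 13 of the 14 had a higher mean with a median of 0.37, 1 passed (Esam, an endothelial adhesion molecule, by 0.58 ± 0.072; limma, adjusted p = 0.0478), and 11 were higher without overlap. Of all genes 11.8% were higher without overlap in that comparison, and the median difference of all genes was 0.024. Before adjustment, 10 of the 14 were higher with a p under 0.05 (limma), beside 8.5% of all genes. In HDAd-gE3 against HDAd-0 all 14 had a lower mean with a median of -0.22, beside -0.04 for all genes. None passed (limma) and 5 had a p under 0.05 before adjustment, beside 9.4% of all genes that were lower at that level. In HDAd-gE3 against PBS 13 had a higher mean with a median of 0.093, beside -0.015 for all genes. None passed (limma) and 3 were higher with a p under 0.05 before adjustment, beside 5.94% of all genes. In RNA of whole aorta, a change in the number of endothelial cells and a change in the RNA of each cell cannot be told apart.

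Set against this endothelial mean on the same array, the members fell into different patterns. Tie1 relative to the markers was still higher with HDAd-0 than with PBS, by 0.22 ± 0.078 (log2, SE from the group SDs) without overlap, and differed by -0.16 ± 0.077 between HDAd-gE3 and HDAd-0 with overlap. For Tek the relative difference between HDAd-0 and PBS was -0.011 ± 0.092, so its higher signal there was as large as that of the markers. Relative Kdr was highest with HDAd-gE3, by 0.46 ± 0.11 against HDAd-0 and 0.28 ± 0.094 against PBS, without overlap in either. Relative Vegfc was lower with HDAd-gE3 than with PBS, by -0.44 ± 0.075 and without overlap, but overlapped HDAd-0. Relative Angpt1 was lower with HDAd-0 than with PBS, by -0.89 ± 0.18, and higher with HDAd-gE3 than with HDAd-0, by 0.94 ± 0.41, both without overlap. All relative values use the brightest probe set alone, which for Flt1 and Vegfa is not matched by the others. Before subtraction, HDAd-gE3 overlapped PBS on 1419417_at of Vegfc, and HDAd-0 overlapped PBS on the second Angpt1 probe set. On its brightest probe set, relative Flt1 differed by -0.59 ± 0.17 between HDAd-0 and PBS and by 0.43 ± 0.19 between HDAd-gE3 and HDAd-0, without overlap. On 1454037_a_at the Flt1 mean was higher with HDAd-0 than with either other group. Relative Vegfa differed from PBS by -0.40 ± 0.13 with HDAd-0 and -0.21 ± 0.064 with HDAd-gE3, without overlap. The marker mean itself differed by 0.36 in HDAd-0 against PBS, 0.14 in HDAd-gE3 against PBS and -0.22 in HDAd-gE3 against HDAd-0. Subtracting it moves every relative value by as much the other way, also for a gene with unchanged signal. Before subtraction Vegfa differed from PBS by -0.048 and -0.071, and Flt1 by -0.24 with HDAd-0, all with overlap. Between HDAd-gE3 and HDAd-0, Kdr differed by 0.24, Angpt1 by 0.73 and Flt1 by 0.22 before subtraction, also with overlap. How many of all genes stood apart after this subtraction was not counted. These relative values were chosen after seeing the data and are given as descriptions, and 3 arrays against 3 cannot give an exact permutation p under 0.1.

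**Figure D5:**
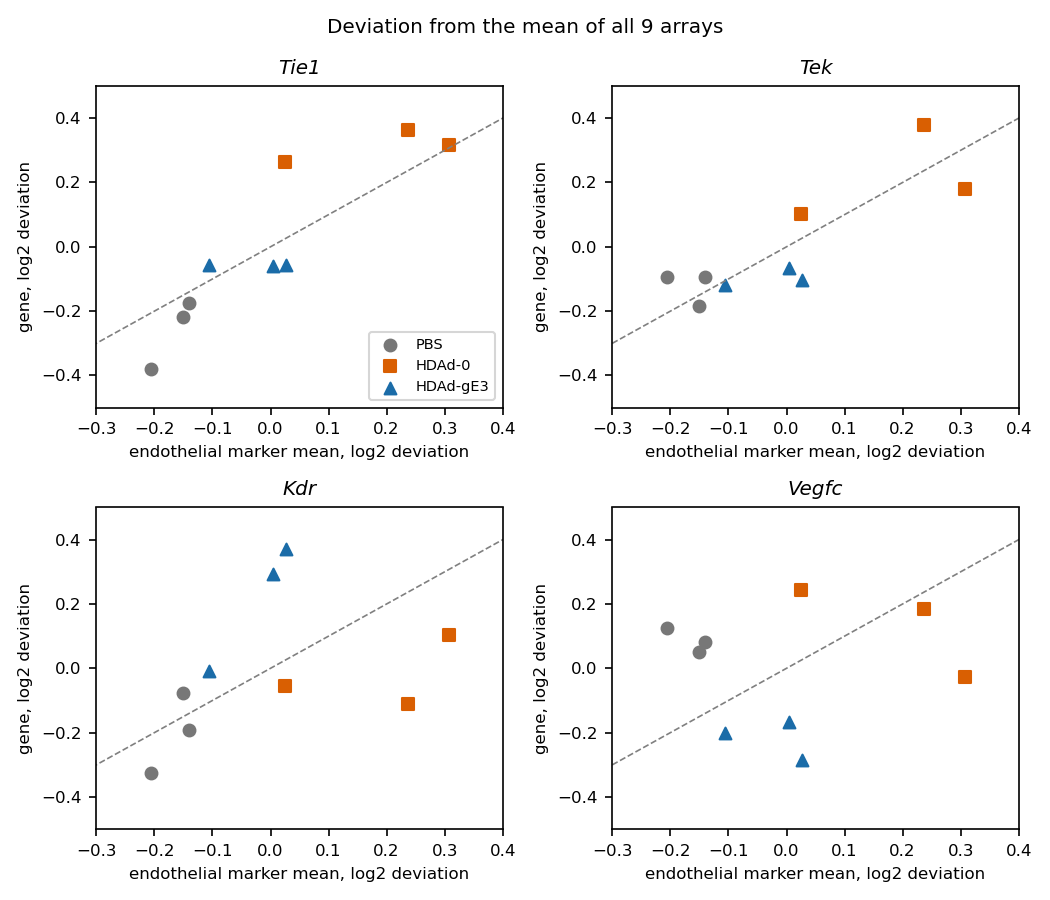
Deviation of Tie1, Tek, Kdr and Vegfc from their mean over all 9 arrays (vertical axis, log2) against that of the mean of 14 endothelial markers (horizontal axis, log2), 1 point an array; the dashed line marks equal deviations. The HDAd-0 arrays of Tie1 lie above the line, the HDAd-gE3 arrays of Kdr above it and those of Vegfc below it.

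The genes most like Tie1 and Tek over the 9 arrays were listed among the brighter genes by Pearson correlation. For Tie1 they were Nos3, the endothelial nitric oxide synthase (0.98), the transcription factor Cebpa (0.95), Necap2 (0.95), the heparan sulfate enzyme Hs3st1 (0.95) and Esam (0.95). For Tek they were Fibp (0.97), the sulfotransferase Chst1 (0.96), the alcohol dehydrogenase Adh1 (0.96), Stxbp6 (0.96) and Mest (0.95). After the group means were taken out, the correlation with Tie1 was 0.66 for Nos3 and 0.30 for Cebpa, and that with Tek was 0.95 for Chst1 and 0.84 for Fibp. Tie1 and Tek had a correlation of 0.88 with each other, and 0.28 after the group means were taken out, so their likeness lay mostly between groups. The 9 arrays share 3 groups and each value is 1 of 9096 compared, so these numbers are descriptions.

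Other genes of the 2 pathways were read from 6 lists of 64 genes, 61 of them measured. None passed in any comparison (limma over all genes). Before adjustment, p was under 0.05 for 13 higher and 1 lower in HDAd-0 against PBS, beside 8.5% and 4.39% of all genes. The numbers were 1 and 7 in HDAd-gE3 against HDAd-0, beside 3.46% and 9.4%, and 3 and 1 in HDAd-gE3 against PBS, beside 5.94% and 7.27%. Their median differences were 0.047, -0.043 and 0.0094. The lists too were chosen with earlier results of these data known.

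Of 11 partners and effectors of the Tie receptors, 3 were higher in HDAd-0 against PBS at an unadjusted p under 0.05 (limma), beside 8.5% of all genes. The same 3 were lower in HDAd-gE3 against HDAd-0 at that level, beside 9.4% of all genes. Both comparisons use the same HDAd-0 arrays, and none of the 11 passed. Nos3, which Tek signalling activates through Akt, differed by 0.37 ± 0.06 between HDAd-0 and PBS (limma, adjusted p = 0.102) and by -0.24 ± 0.06 between HDAd-gE3 and HDAd-0 (0.214), with the groups apart in both. Angpt4, a further angiopoietin, differed by 0.33 ± 0.072 and -0.21 ± 0.072 in the same comparisons, and Dok2, an adaptor that docks on Tek, by 0.24 ± 0.066 and -0.31 ± 0.066. Among the 5 other VEGF ligands and coreceptors none reached an unadjusted p under 0.05. The largest of the differences for the neuropilin Nrp2 was -0.11 ± 0.058 (HDAd-gE3 against HDAd-0), for placental growth factor (Pgf) 0.10 ± 0.056 and for the lymphatic ligand Vegfd -0.15 ± 0.093 (both HDAd-gE3 against PBS).

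Among 11 measured genes of VEGF receptor signalling, the heat shock protein Hspb1 differed by -0.35 ± 0.14 between HDAd-0 and PBS and by -0.34 ± 0.14 between HDAd-gE3 and PBS. The kinase Src differed by 0.19 ± 0.076 and the adaptor Sh2d2a by 0.24 ± 0.10 between HDAd-0 and PBS. Of 8 genes of the VEGF response and of endothelial tip cells, the Notch ligand Dll4 differed by 0.23 ± 0.087 between HDAd-0 and PBS and by -0.28 ± 0.087 between HDAd-gE3 and HDAd-0. Igfbp3 differed by 0.29 ± 0.11 and 0.40 ± 0.11 in HDAd-0 and HDAd-gE3 against PBS, and the peptide Apln by 0.58 ± 0.24 in HDAd-0 against PBS. No member of these 2 lists passed (limma, lowest adjusted p among those named 0.204).

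In the list of 12 hypoxia regulators and targets, which includes the factors that drive Vegfa, 1 gene had an unadjusted p under 0.05 (limma) in each comparison. Of all genes, 12.9% to 13.2% did. Adrenomedullin (Adm), a vasodilator peptide, differed by 0.32 ± 0.073 in HDAd-0 and 0.22 ± 0.073 in HDAd-gE3 against PBS, and Pdk1, a mitochondrial kinase, by 0.22 ± 0.085 in HDAd-gE3 against HDAd-0. The glucose transporter Slc2a1 differed by -0.12 ± 0.059 in HDAd-0 against PBS. Of 14 endothelial transcription factors, 13 had a higher mean with HDAd-0 than with PBS, and 12 a lower mean with HDAd-gE3 than with HDAd-0. Their median differences were 0.12 and -0.15, beside 0.024 and -0.04 for all genes. At an unadjusted p under 0.05 (limma), 4 were higher in HDAd-0 against PBS, beside 8.5% of all genes. Sox17, an arterial factor, differed by 0.26 ± 0.11 and -0.39 ± 0.11 in these comparisons, and the ETS factor Elk3 by 0.18 ± 0.051 and -0.17 ± 0.051. Klf2, a factor induced by laminar flow, differed by 0.45 ± 0.16 in HDAd-0 against PBS and by -0.0012 ± 0.16 in HDAd-gE3 against HDAd-0, and no transcription factor passed (limma).

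Lymphatic markers, the background for Flt4 and Vegfc, were at -0.0017 to 0.12 on the PBS arrays, -0.032 to 0.086 on the HDAd-0 arrays and -0.32 to 0.18 on the HDAd-gE3 arrays (mean of 5 markers, log2 deviation from the mean of all arrays). HDAd-gE3 replicate 4, the lowest Flt4 array, was also the lowest in these markers. The highest Flt4 array, HDAd-0 replicate 5, was the lowest of its group in them, at -0.032. The highest array in these markers, HDAd-gE3 replicate 2 at 0.18, read 9.81 for Flt4. None of the 5 passed (limma), and podoplanin (Pdpn) differed by -0.16 ± 0.058 in HDAd-gE3 against either other group. Their part in the Flt4 and Vegfc values was not tested.

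Markers of other cells and tissues varied between arrays as well, on the same scale. Macrophage markers (8) lay between 0.054 and 0.19 with HDAd-0, -0.047 and 0.033 with PBS, and -0.12 and -0.075 with HDAd-gE3, lowest with HDAd-gE3 as Vegfc was. Liver markers (5 of 6 measured) lay between 0.028 and 1.55 with HDAd-0, -0.77 and -0.46 with PBS, and -0.57 and 0.40 with HDAd-gE3. Skeletal muscle markers (8) lay between -0.28 and 1.56, -0.26 and 0.055, and -0.99 and -0.30 in the same order, and were highest on HDAd-0 replicate 5, the highest Flt4 array. Neutrophil markers (6) lay between -0.997 and -0.128, -0.61 and -0.32, and 0.47 and 2.07, and erythroid markers (4 of 6 measured) between -0.075 and 0.52, -0.89 and -0.57, and 0.35 and 0.80. The erythroid anion exchanger Slc4a1 rose by 2.25 ± 0.29 in HDAd-gE3 against PBS (limma, adjusted p = 0.0386), and no other marker of these lists passed. In that comparison 3 of the 4 erythroid markers were higher and 1 was lower, each at an unadjusted p under 0.05 (limma). Of all genes, 5.94% were higher and 7.27% lower at that level. Smooth muscle (6), pericyte (6), fibroblast (6) and adipocyte (5 of 7 measured) markers had none past the threshold, and their array means ran from -0.32 to 0.27. The part of these cells and tissues in the members' values was not tested.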

How the data were processed

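Signals of 9 mouse expression arrays were taken as log2 values that the authors deposited, normalized with RMA per the submitters' processing notes (version not given in the sources used here). Of 45101 probe sets, 64 controls were left out. The platform annotation gave 34945 probe sets 1 gene, 932 several and 9160 none, and 34741 were matched to a RefSeq gene. The probe set with the highest mean stood for each of 18193 genes, and a second fit used all 45037 probe sets. Groups came from the labels and were compared with limma 3.58.1 (R 4.3.3; lmFit and eBayes over all 9 arrays, 6 residual degrees of freedom, Benjamini-Hochberg threshold 0.05), tested on simulated data. No raw intensities or detection calls were used. The labels name separate pools as replicates. The numbers in the array titles do not interleave between groups. The labels do not say what these numbers stand for, and any effect tied to them cannot be told apart from group. The genes named are the 9 members on every probe set, the members of each list past the threshold in any comparison or, where there were none, up to 3 with the smallest p, and the 5 genes with the highest Pearson correlation to Tie1 and to Tek among named genes at or above the median level. The members and gene lists were chosen with earlier results of these data known. Alternatives covered scaling, filters, the choice of probe set, the model and each array left out. The 3' minus 5' control signal was 0.866 ± 0.071 (SD) in PBS, 0.933 ± 0.16 in HDAd-0 and 0.735 ± 0.069 in HDAd-gE3, and its part was not tested beyond its use as a covariate.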

Additional observations from a re-analysis of the deposited data

How the results depend on the processing

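Of 567 values of the members under alternatives, 510 kept their direction and side of the threshold, 42 reversed, 13 (all Tie1 in HDAd-0 against PBS) lost the call and 2 gained one. Tie1 in HDAd-0 against PBS stayed called under median centring, repeated quantile normalization, the dim filter, the mean of probe sets, array weights, the intensity trend and robust eBayes (adjusted p 0.0151 to 0.0489), and not with the most variable probe set (0.0852), only 2 groups (0.135), the 3' minus 5' covariate (0.0529) or without both HDAd-gE3 replicate 4 and HDAd-0 replicate 5 (0.121); the last 2 were chosen after seeing the data. Members called in HDAd-0 against PBS were then 0 in place of 1, and member probe sets 1 in place of 0 with the dim filter, the trend or a threshold of 0.1. Array weights called 2 members in HDAd-gE3 against PBS. Leaving out 1 array gave 0 to 1 members or member probe sets. Genes called in HDAd-gE3 against HDAd-0 were 1, or 0 with the dim filter, most variable probe set, 2 groups, array weights, robust eBayes, block or covariate, and 0 to 10 without 1 array. In HDAd-0 against PBS they were 12, or 6 (quantile), 22 (dim filter), 3 (most variable), 0 (2 groups, covariate), 1 (without both arrays) and 35 (threshold 0.1), and 0 to 31 without 1 array. In HDAd-gE3 against PBS they were 23, or 144 (dim filter), 13 (2 groups), 804 (weights), 89 (trend), 1 (without both arrays), 3 (covariate) and 134 (threshold 0.1), and 0 to 21 without 1 array. With the replicate number as a block no gene was called in any comparison (0 of 18193) and Tie1 in HDAd-0 against PBS had an adjusted p of 0.404 (limma). Deviations from group means had correlations of -0.046 to 0.0999 between arrays of the same number, and -0.16 to 0.14 between arrays of different numbers. With 3 arrays a group these correlations cannot decide whether the number pairs pools, and the labels do not say. The block reversed Angpt2 in HDAd-gE3 against HDAd-0 (-0.067) and Angpt1 (-0.23) and Flt1 (0.033) in HDAd-gE3 against PBS. Other reversals in HDAd-gE3 against HDAd-0 were Angpt2 (-0.058 centred, -0.0036 quantile, -0.11 without both arrays), Flt1 (-0.067 mean of probe sets, -0.25 covariate), Flt4 (0.16 without both) and Vegfa (0.013 mean, 0.050 most variable, 0.040 weights, 0.056 without both). In HDAd-0 against PBS they were Angpt2 (-0.011 most variable, -0.017 covariate), Flt1 (0.0019 mean) and Vegfa (0.0028 mean, 0.053 most variable). In HDAd-gE3 against PBS they were Tek (-0.011 centred), Angpt1 (-0.093 covariate), Flt1 (0.062 weights, 0.065 without both), Flt4 (-0.11 covariate) and Vegfa (0.016 mean, 0.10 most variable, 0.024 without both). Without 1 array, HDAd-gE3 against HDAd-0 ran from -0.082 to 0.11 for Angpt2, -0.027 to 0.40 for Flt1, -0.25 to 0.029 for Flt4 and -0.076 to 0.072 for Vegfa; HDAd-0 against PBS from -0.043 to 0.14 for Angpt2, -0.42 to 0.0064 for Flt1 and -0.0087 to 0.13 for Vegfc; and HDAd-gE3 against PBS from -0.0013 to 0.044 for Tek, -0.17 to 0.55 for Angpt1, -0.11 to 0.065 for Flt1, -0.018 to 0.26 for Flt4 and -0.12 to 0.024 for Vegfa. The cause of these changes was not tested.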
